A study of Mus musculus with 8 samples.

Results

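RNA polymerase II (Pol II) occupancy and contacts of 10 heat-shock and cold-inducible genes were read from a ChIA-PET series of mouse liver. The genes were Hspa5, Hspa8, Hspa1b and Hsph1 of the HSP70 and HSP110 family, Hsp90aa1 and Hsp90ab1 of the HSP90 family, the J-domain gene Dnajb1, the cold-inducible genes Cirbp and Rbm3, and Midn, the neighbour of Cirbp. They are 10 of 21887 protein-coding genes in the gene table. They were selected with their densities and contacts in these files known, so those values are given as a description without a test. In ChIA-PET, crosslinked chromatin is precipitated with an antibody to Pol II, DNA ends held in one complex are ligated, and a tag is sequenced from each side. Each such paired-end tag (PET) has 2 ends, each with a position in the genome.

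The livers came from wild-type C57BL/6 mice aged 3-6 months, kept in alternating 12 hours of light and dark with free access to food. Each of 8 libraries was labelled ZT06 (the middle of the day) or ZT18 (the middle of the night), and its chromatin combined several livers before precipitation with the 8WG16 antibody. Experiment 1 (4 libraries) and experiment 3 (2 libraries) were crosslinked with EGS and formaldehyde, and experiment 2 (2 libraries) with formaldehyde alone. The deposited table names the experiment of a PET but neither its library nor its time point. Each experiment is therefore 1 pool of day and night livers, day and night were not compared, and no result below has a p-value. The experiments held 474478, 1438866 and 840210 PETs, of which 22.5%, 6.23% and 14.8% of the nuclear ones had ends at most 8 kb apart on one chromosome. Liver identity was checked on marker genes: 6 of 7 hepatocyte markers were at or above 2 times the nuclear mean density in all 3 experiments (medians 53.5, 8.10 and 13.4), against 0 of 6 for Kupffer cells, 0 of 5 for endothelial cells, 0 of 5 for stellate cells, 1 of 4 for cholangiocytes and 0 of 4 for neurons.

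Heat-shock proteins are chaperones that help other proteins fold and keep unfolded ones from aggregating. HSP70 proteins bind exposed stretches of a client, J-domain proteins deliver clients to them, HSP110 proteins exchange their nucleotide, and HSP90 proteins mature clients further along. Heat raises many of these genes through heat-shock factor 1, which binds repeated GAA units, while stress in the endoplasmic reticulum raises Hspa5 through its own promoter element. Cirbp and Rbm3 encode small RNA-binding proteins that rise when cells are mildly cooled. In liver, body temperature and feeding are known to give several genes of both kinds a daily rhythm.

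Regions ahead of some annotated starts are shown here. RefSeq promoter entries (GRCm38.p6) matched 6 of the 10 members, and Rbm3, Hspa8, Hsp90aa1 and Hsp90ab1 had no entry. The 250 bases before the start are printed 5′ to 3′ on the gene's strand. Cirbp, Midn and Hsph1 each have 2 entries, of which 1 is printed. Cirbp is shown for the mild-cold element TCCCCGCC, in capitals, and Midn for an E-box CACGTG, in capitals. The other Midn entry has no E-box. It held 18, 5 and 10 ends in experiments 1 to 3, against 5, 6 and 7 in the printed entry. Hspa5 is shown for its endoplasmic reticulum stress response element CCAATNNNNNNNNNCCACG, in capitals. Hsph1 is shown for a heat-shock element of 2 inverted units, TTCNNGAA, and an E-box, both in capitals. Hspa1b is shown for a heat-shock element GAANNTTC, in capitals, and Hspa1a because it is a near-identical copy, with capitals at the bases that differ from Hspa1b.
Cirbp, chr10:80167589-80167838, plus strand, GRCm38.p6: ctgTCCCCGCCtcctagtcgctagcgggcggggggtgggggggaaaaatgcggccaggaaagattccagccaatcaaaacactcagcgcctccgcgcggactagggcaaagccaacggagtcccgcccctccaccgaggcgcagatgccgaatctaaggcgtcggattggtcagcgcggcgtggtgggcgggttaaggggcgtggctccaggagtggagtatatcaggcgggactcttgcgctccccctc
Midn, chr10:80149432-80149681, plus strand, GRCm38.p6: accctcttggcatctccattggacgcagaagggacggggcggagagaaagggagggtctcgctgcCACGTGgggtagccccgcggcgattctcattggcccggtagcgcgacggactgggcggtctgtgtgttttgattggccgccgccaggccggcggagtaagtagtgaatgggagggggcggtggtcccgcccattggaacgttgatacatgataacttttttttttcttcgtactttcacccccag
Hspa5, chr2:34771840-34772089, plus strand, GRCm38.p6: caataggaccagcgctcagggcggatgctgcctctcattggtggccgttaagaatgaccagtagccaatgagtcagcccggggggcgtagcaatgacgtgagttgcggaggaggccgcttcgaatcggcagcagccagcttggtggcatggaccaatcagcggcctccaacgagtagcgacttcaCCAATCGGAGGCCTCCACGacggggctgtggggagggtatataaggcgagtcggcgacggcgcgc
Hsph1, chr5:149636316-149636565, minus strand, GRCm38.p6: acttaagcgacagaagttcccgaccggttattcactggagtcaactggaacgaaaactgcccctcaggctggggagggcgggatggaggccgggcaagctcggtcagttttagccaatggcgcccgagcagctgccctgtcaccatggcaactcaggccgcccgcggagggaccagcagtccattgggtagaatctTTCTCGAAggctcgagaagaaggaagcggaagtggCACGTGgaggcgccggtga
Hspa1b, chr17:34959239-34959488, minus strand, GRCm38.p6: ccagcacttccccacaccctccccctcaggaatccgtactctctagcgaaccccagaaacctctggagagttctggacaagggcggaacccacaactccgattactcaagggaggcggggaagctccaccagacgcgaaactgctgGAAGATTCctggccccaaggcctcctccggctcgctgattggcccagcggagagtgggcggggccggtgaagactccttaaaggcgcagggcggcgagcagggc
Hspa1a, chr17:34972157-34972406, minus strand, GRCm38.p6: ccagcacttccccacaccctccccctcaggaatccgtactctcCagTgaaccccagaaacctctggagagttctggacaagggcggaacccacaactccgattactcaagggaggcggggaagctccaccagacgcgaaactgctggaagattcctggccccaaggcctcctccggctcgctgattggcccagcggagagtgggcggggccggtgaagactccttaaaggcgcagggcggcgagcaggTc

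Motifs were searched on both strands of 300 bases per entry, from 250 before to 50 after the start, in 21263 entries of 17492 genes. The endoplasmic reticulum stress response element of Hspa5 lies at -65 to -47 and was present in 0.141% of entries. Its first 5 bases are also a CCAAT box, which 38.2% of entries held. The mild-cold element of Cirbp lies at -247 to -240 and was in 7.16% of entries, among them Hspa1b, Hspa1a and, at 34 to 41, an entry of Dnajb1. Hsph1 holds TTCNNGAA at -54 to -47, an E-box at -19 to -14 and, past the start at 15 to 27, the 3-unit element GAANNTTCNNGAA, of which the 2-unit elements there are parts. The 3-unit element was in 0.517% of entries, GAANNTTC in 7.21%, TTCNNGAA in 7.61% and the E-box in 7.84%. Hspa1b and Hspa1a share GAANNTTC at -104 to -97. No 2-unit heat-shock element was found in these windows of Dnajb1, Cirbp, Midn or Hspa5. A match of letters describes the sequence and shows no binding.

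Density is given as PET ends over the annotated span and 2.5 kb either side, per base pair, relative to the mean over the nuclear chromosomes of that experiment. Brackets hold exact 95% Poisson intervals, which cover counting error only. They treat ends as independent. Both ends of a PET of at most 8 kb can fall in one window, so the intervals are too narrow. Across all protein-coding genes the median density was 1.22, 1.2 and 1.42 in experiments 1, 2 and 3. Bulk chromatin cannot tell fewer cells with a polymerase-bound gene from less polymerase per cell.

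Among the HSP70 genes, Hspa5 (chr2:34772090-34776529, GRCm38), the chaperone of the endoplasmic reticulum known as BiP, held 122, 67 and 61 ends in experiments 1 to 3. Its relative density was 37.1 (30.8 to 44.3), 6.71 (5.20 to 8.53) and 10.5 (8.03 to 13.5). Hspa8 (chr9:40801276-40805202), the constitutively made cytosolic HSP70, held 107, 72 and 45 ends, a relative density of 34.4 (28.2 to 41.6), 7.63 (5.97 to 9.61) and 8.19 (5.97 to 11.0). Both genes lay above the 99th percentile of protein-coding genes in every experiment. Their surroundings were not alike in density. From 10 to 50 kb beyond the gene the relative density around Hspa8 was 0.968, 0.804 and 1.32, so that the gene stood 35.5, 9.49 and 6.20 times above it. Hspa5 stood 19.1, 6.53 and 5.68 times above its own surroundings.

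The 2 cytosolic HSP90 genes differed in density by value. Hsp90ab1 (chr17:45567778-45573261), the constitutive form, held 118, 66 and 66 ends at a relative density of 32.3 (26.7 to 38.7), 5.96 (4.61 to 7.58) and 10.2 (7.91 to 13.0). Hsp90aa1 (chr12:110691036-110696395), the more heat-inducible form, held 35, 27 and 29 ends at 9.69 (6.75 to 13.5), 2.47 (1.62 to 3.59) and 4.55 (3.05 to 6.53). As computed, their intervals did not overlap in any of the 3 experiments, but short PETs make such intervals too narrow. With PETs between chromosomes alone Hsp90ab1 had 19.8, 3.26 and 8.30 and Hsp90aa1 9.47, 2.16 and 3.32. The window of Hsp90ab1 also takes in the neighbouring gene Slc35b2 and a non-coding gene, while no other annotated gene reaches the window of Hsp90aa1. Dnajb1 (chr8:83608175-83612653), the J-domain partner of cytosolic HSP70, lay between the 2 HSP90 genes by value with 51, 37 and 34 ends and a relative density of 15.4 (11.5 to 20.3), 3.69 (2.60 to 5.09) and 5.83 (4.03 to 8.14).

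Of the cold-inducible genes, Cirbp (chr10:80165990-80172786) held 66, 43 and 48 ends at a relative density of 16.0 (12.4 to 20.4), 3.45 (2.5 to 4.64) and 6.61 (4.87 to 8.76). Midn (chr10:80146005-80158368), which encodes the nuclear protein midnolin, had 93, 54 and 82 ends at 15.4 (12.4 to 18.8), 2.94 (2.21 to 3.84) and 7.67 (6.10 to 9.52). The intervals of these neighbours overlapped in every experiment. The window of Cirbp also takes in the gene Fam174c, and that of Midn takes in part of Atp5d. Rbm3 (chrX:8138975-8145880), the other cold-inducible RNA-binding gene, had 16, 16 and 15 ends at 3.86 (2.20 to 6.26), 1.27 (0.727 to 2.06) and 2.05 (1.15 to 3.38). As computed, its intervals lay below those of Cirbp in all 3 experiments. The size of the gap depended on the kind of PET. With PETs between chromosomes alone Cirbp had 6.65, 2.44 and 5.15 and Rbm3 5.27, 1.25 and 1.53, close to each other in experiment 1. Rbm3 is on the X chromosome, whose genes had a median density of 0.504, 0.505 and 0.524 against 1.27, 1.22 and 1.46 for autosomal genes. No source used here gives the sex of the mice, and the part of X dosage in the lower value of Rbm3 was not tested.

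The 2 remaining chaperone genes had the lowest densities in experiments 1 and 2. Hsph1 (chr5:149616843-149636498), an HSP110 nucleotide exchange factor, had 19, 33 and 42 ends at 2.21 (1.33 to 3.45), 1.27 (0.872 to 1.78) and 2.77 (1.99 to 3.74), above the median gene beyond its interval in experiments 1 and 3 but not in experiment 2. Hspa1b (chr17:34956429-34959238), a strongly heat-inducible HSP70 gene, had 6, 8 and 6 ends at 2.20 (0.809 to 4.80), 0.969 (0.418 to 1.91) and 1.25 (0.458 to 2.72). These intervals included the nuclear mean of 1 in every experiment. The surroundings of Hspa1b were at least as dense as its window, which was 0.831, 0.872 and 0.647 times their density. Within the span itself Hspa1b held 1, 0 and 0 ends and its copy Hspa1a held 0, 1 and 1. The promoter entries of the copies were identical at 296 of 300 bases with a shared run of 201 bases, so a short tag from much of these regions fits both, and no source used here says how such tags were handled. The low counts of both copies therefore cannot be told apart from the loss of tags with 2 possible places.

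**Figure D1:**
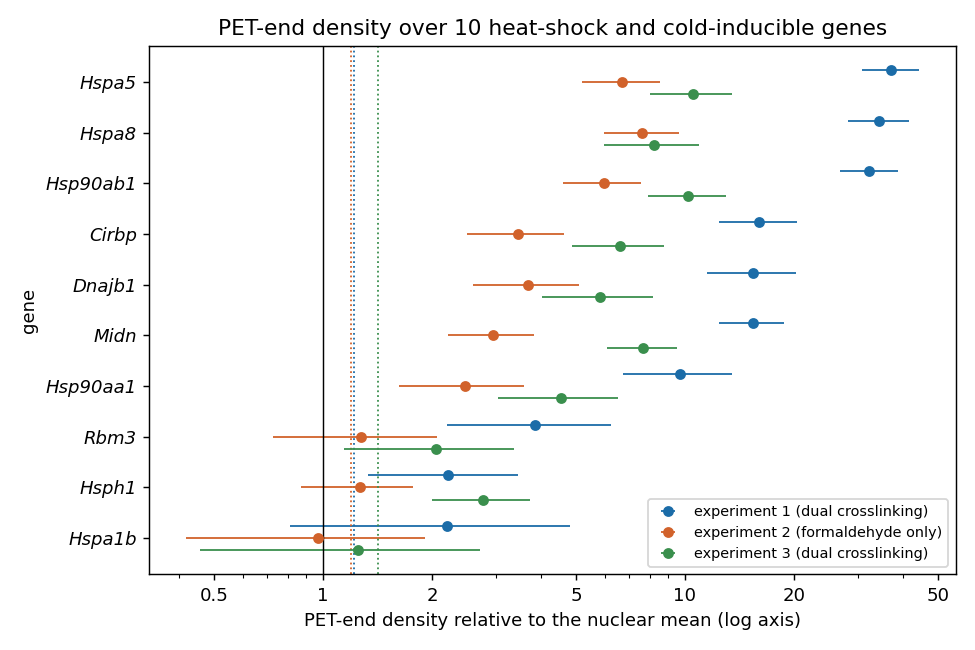
PET-end density of the 10 genes relative to the nuclear mean (log axis), by experiment. Points are values, bars exact 95% Poisson intervals, the solid line the nuclear mean and dotted lines the medians of all protein-coding genes. Hspa5, Hspa8 and Hsp90ab1 lie furthest right in each experiment, and Hspa1b lies at the nuclear mean within its interval.

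At or above a density of 2 were 10 of the 10 members in experiment 1, 7 in experiment 2 and 9 in experiment 3, and 7 in all 3. Of all protein-coding genes 27.7%, 6.52% and 25.4% were, and 5.32% in all 3. Since the members were selected on these densities, nothing is read from that contrast. The members' median was 15.4, 3.19 and 6.22. The order of density in experiment 1 was Hspa5, Hspa8, Hsp90ab1, Cirbp, Dnajb1, Midn, Hsp90aa1, Rbm3, Hsph1, Hspa1b. Neighbours in it were apart by their intervals, as computed, only between Hsp90ab1 and Cirbp and between Hsp90aa1 and Rbm3. No neighbours in the order were set apart in experiment 2 or 3. The leading 3 genes were the same in each experiment, with Hspa8 first in experiment 2 and Hspa5 first in the others.

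Experiment 1 gave the members the highest densities, except Hsph1. The ratio of experiment 1 to experiment 2 ran from 1.75 (0.938 to 3.16) for Hsph1 to 5.52 (4.07 to 7.55) for Hspa5. Its median was 1.36 over 12880 genes with at least 10 ends in each experiment and 3.38 over the 1167 of these at or above 2 in experiment 2. The lower limits for Hspa5, Hsp90ab1 (5.42, 3.98 to 7.44) and Midn (5.22, 3.70 to 7.45) lay above that second median. The median was higher in the denser genes, and the members were selected on these densities, so nothing is read from this. The ratio of experiment 3, also doubly crosslinked, to experiment 2 ran from 1.07 (0.723 to 1.58) for Hspa8 to 2.61 (1.83 to 3.75) for Midn, against a median of 1.62 over the 1167 genes. Dual against single crosslinking is a comparison of 2 pools with 1, for which the smallest two-sided permutation p is 0.333, and crosslinking and experiment cannot be told apart.

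The order of the experiments depended on the kind of PET. With all PETs, the summed density of the 10 genes was 14.9, 3.27 and 5.69 in experiments 1 to 3. With PETs between chromosomes alone it was 11.1, 2.25 and 4.44, in the same order. With PETs whose ends lay at most 8 kb apart, scaled to the nuclear mean of that kind, it was 28.7, 18.9 and 11.2, so that experiment 2 stood above experiment 3. The short kind made up 43.6% (exact binomial interval 39.7% to 47.6%), 35.9% (31.4% to 40.7%) and 29.0% (24.7% to 33.5%) of the members' ends in experiments 1 to 3. Over all protein-coding windows it was 27.4%, 7.55% and 16.4%. By value the excess over all windows was thus widest in experiment 2. The members were selected on densities that include these ends, and windows of like density were not compared. Nothing is therefore read from that contrast.

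Single genes differed by value in their share of short PETs. In experiment 1 Cirbp had 41 of 66 ends in short PETs (62.1%, 49.3% to 73.8%) and Hsp90ab1 64 of 118 (54.2%, 44.8% to 63.4%). Hspa8, with about as many ends as Hsp90ab1, had 32 of 107 (29.9%, 21.4% to 39.5%) in that experiment, and its interval as computed lay below both. Both ends of a short PET can fall in one window and are counted separately. These intervals are therefore too narrow to set the genes apart. Even as computed, they were apart in that experiment alone. In experiment 2 the shares of Cirbp, Hsp90ab1 and Hspa8 were 37.2%, 48.5% and 41.7%, and in experiment 3 they were 22.9%, 31.8% and 28.9%, with overlapping intervals. Rbm3 had 0 of 16 ends in short PETs in experiment 1, with an upper limit of 20.6%. Hspa1b had 0 of 6, 0 of 8 and 0 of 6, with upper limits of 45.9%, 36.9% and 45.9%. Partners on other chromosomes fell in a gene window for 52.5%, 48.4% and 50.4% of the members' ends, close to the 51.7%, 47.8% and 53.1% of all ends. PETs that joined 2 members on different chromosomes numbered 0 in each experiment.

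**Figure D2:**
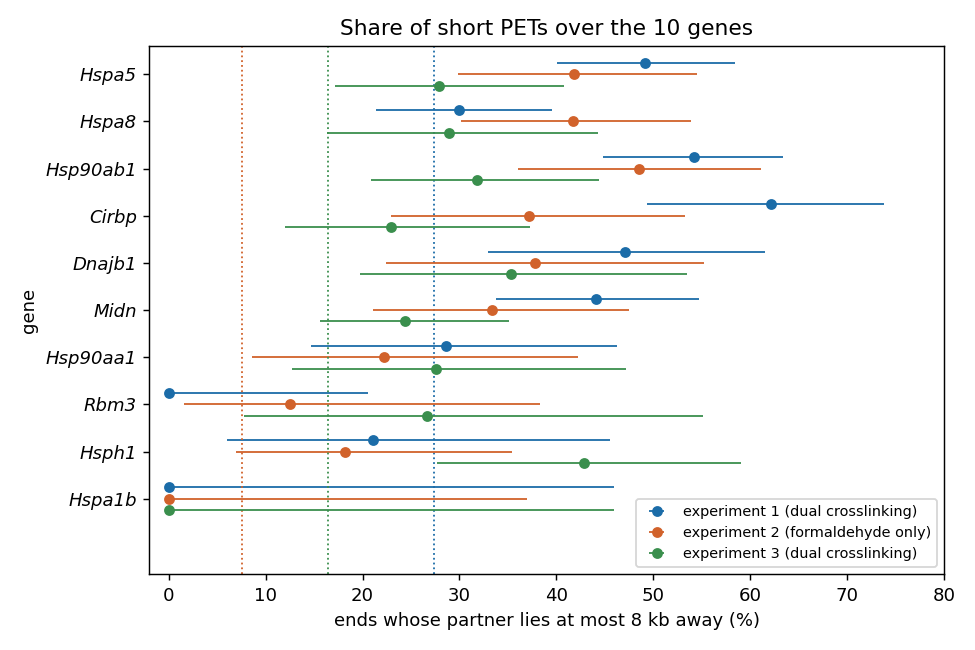
Share of each gene's PET ends whose partner lies at most 8 kb away (x axis, %), by experiment, with exact 95% binomial intervals. Dotted lines are the shares over all protein-coding windows (27.4%, 7.55% and 16.4%). In experiment 2 the points of 9 genes lie to the right of the dotted line, those of Rbm3 and Hsph1 with intervals that include it, and Hspa1b is at 0 in each experiment.

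Starts were dense in general: over 14986 genes with an annotated start, the density within 1 kb of it was 8.16, 2.5 and 4.57 in experiments 1 to 3. Over the 6 members with an annotated start, 61.3%, 63.2% and 52.4% of ends lay within 1 kb of a start. For Dnajb1 such ends made up 84.3% (71.4% to 93.0%), 73.0% (55.9% to 86.2%) and 73.5% (55.6% to 87.1%), and for Hspa5 55.7%, 76.1% and 60.7%. Hsph1 had 36.8%, 36.4% and 26.2%, in 8.20% of its long window, a density of 9.93, 5.61 and 8.84 there. The 300-base promoter window of Hspa5 printed above in part held 23, 19 and 15 ends, a relative density of 220, 59.9 and 81.2. The window of the printed Cirbp entry held 16, 13 and 7 ends, a relative density of 153, 41.0 and 37.9. By contrast the Hspa1b promoter window held 1, 0 and 0 ends and that of Hspa1a 0, 1 and 0.

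In bins of 500 bp, 48.4% of the 122 ends of Dnajb1 over all experiments fell in the first bin of the gene, and 42.9% of the 91 ends of Hsp90aa1 in the bin that holds its upper boundary. For Cirbp 34.4% of 157 ends fell from 1500 to 2000 bp above its lower boundary, where an annotated start lies. Midn, like Cirbp with 2 annotated starts inside its span, had 21.0% of 229 ends from 2000 to 2500 bp, in a longer window. The relative density of the densest bin over all experiments was 47.5 in Midn and 53.4 in Cirbp. The strand of Rbm3, Hspa8, Hsp90aa1 and Hsp90ab1 is not in the tables used here, so for these genes the boundary with more ends is given in place of a start.

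Hspa8 had a second dense stretch at its other end, a pattern noticed after the values were seen. Within 1 kb of its lower boundary it held 44, 53 and 17 ends in experiments 1 to 3. In the 2.5 kb above its upper boundary it held 46, 14 and 18. Per base pair the upper flank was 0.837 (0.541 to 1.30), 0.211 (0.108 to 0.387) and 0.847 (0.412 to 1.75) times as dense as the lower boundary. As computed, the interval of the formaldehyde pool lay below those of the 2 doubly crosslinked pools. The size of the ratio depended on the length of the flank: with 1 kb it was 0.682, 0.113 and 0.589, and with 5 kb 0.464, 0.128 and 0.659, in experiments 1 to 3. No other protein-coding gene lies in that flank. Over 1390 genes with an annotated start, at least 30 ends there and no other gene near the downstream flank, the same ratio was 0.126, 0.187 and 0.165, highest in experiment 2. The flank was part of the window on which Hspa8 was selected, so this is a description.

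In Hspa5 and Hsp90ab1 the ratio was also lowest in experiment 2. The flank beyond Hspa5 was 0.247 (0.144 to 0.408), 0.0628 (0.0165 to 0.171) and 0.281 (0.137 to 0.541) times as dense as its start, but Rabepk overlaps that side. For Hsp90ab1 the ratio was 0.307 (0.181 to 0.504), 0.0552 (0.0146 to 0.149) and 0.232 (0.107 to 0.463), and Slc35b2 lies in that flank. Ends at these neighbours cannot be told apart from ends of the member. It was lowest in experiment 2 by value in Midn (0.330, 0.182 and 0.515) and Hsph1 (0.229, 0.133 and 0.437) as well, with overlapping intervals. By contrast it was not lowest there in Dnajb1 (0.0558, 0.0889 and 0.0667), Cirbp (0.119, 0.288 and 0.229) or Hsp90aa1 (0.320, 0.191 and 0.146). The gene Fam174c lies in the flank beyond Cirbp, so the ends there cannot be assigned to Cirbp. Rbm3 and Hspa1b had too few ends to compare. The part of crosslinking in it was not tested.

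**Figure D3:**
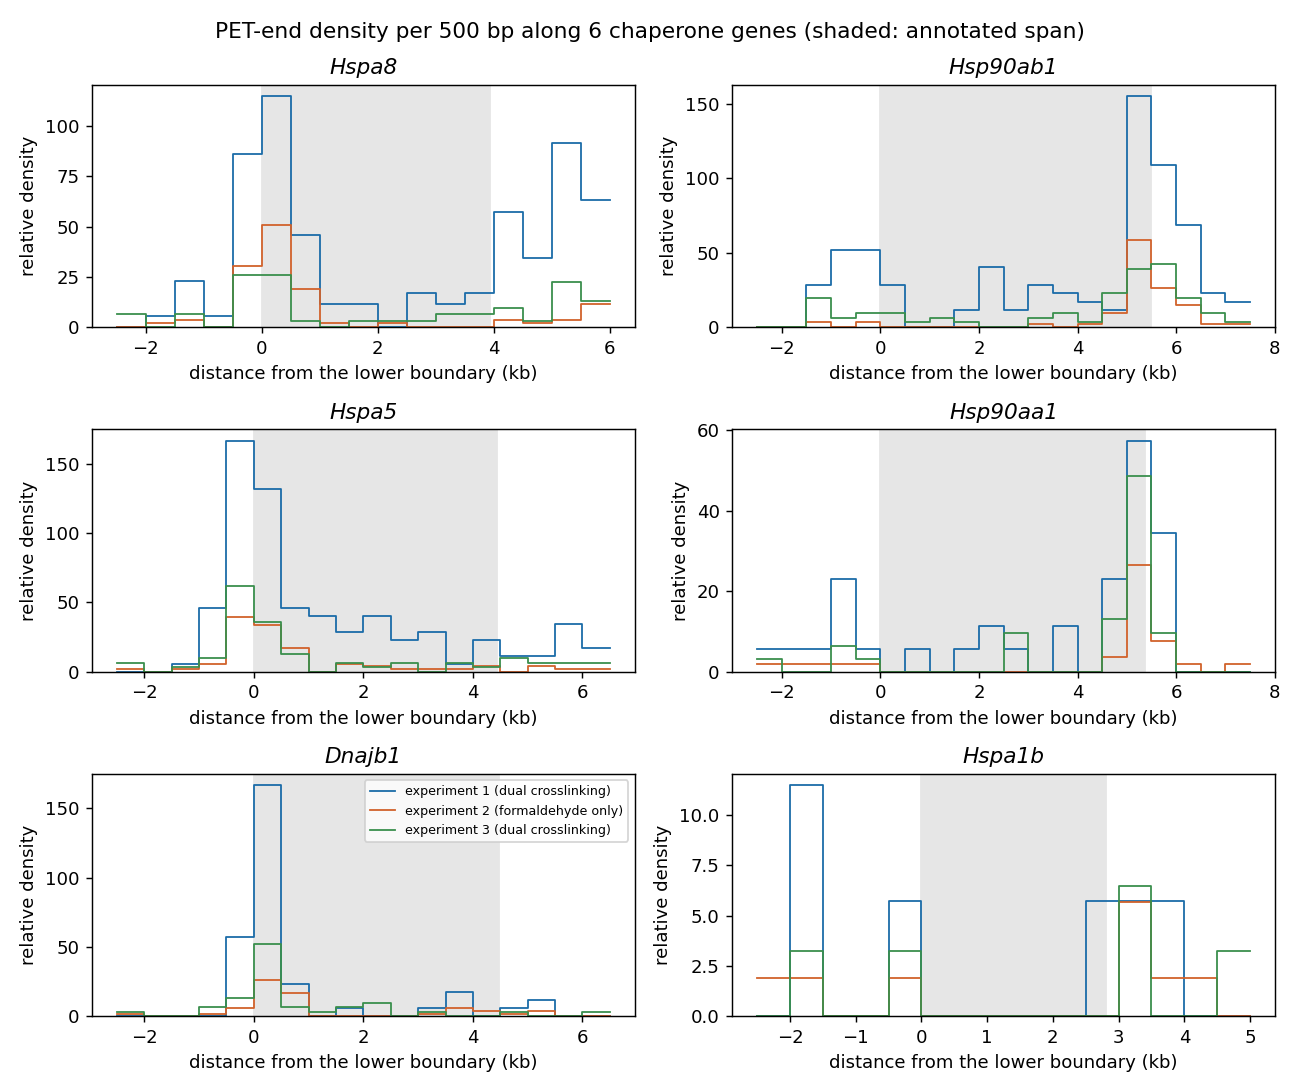
PET-end density per 500 bp relative to the nuclear mean (y axis) along 6 chaperone genes, against distance from the lower annotated boundary in kb, by experiment. Grey marks the annotated span, and each panel has its own y axis. Hspa8 has a second rise past its upper boundary, tallest in experiment 1, Dnajb1 has a single peak, and Hspa1b has few ends anywhere.

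Contacts over distance were few. Of 59 far PETs counted over the members (over 8 kb on one chromosome), 46 spanned more than 1 Mb. From 8 kb to 1 Mb there were 11 distinct PETs, 1 in experiment 1, 0 in experiment 2 and 10 in experiment 3. Experiment 3 held 55.1% of all 6280 PETs of that length in the series. They touched 4 of the 10 members (Cirbp, Midn, Hsp90aa1 and Dnajb1), while 24.5% of protein-coding genes had one. Of the 6 members with 100 or more ends 3 had one, against 43.9% of genes with as many ends. Hspa8, Hsp90ab1 and Hspa5, with 224, 250 and 250 ends, had none.

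Cirbp and Midn were joined by 2 PETs, 1 in each doubly crosslinked experiment. In experiment 1 a PET of 10322 bp ran from chr10:80153646, inside Midn, to chr10:80163968, in the flank below Cirbp. In experiment 3 a PET of 13716 bp ran from chr10:80151247, inside Midn, to chr10:80164963, in the same flank. Random joining of the ends in both windows would give 0.00647, 0.000807 and 0.00235 PETs in experiments 1 to 3, a value that takes no account of the short distance. The genes lie 7621 bp apart, and the 2621 bp between their windows had a density of 14.2, 2.53 and 8.68, near that of the genes themselves. Of 49923 gene pairs within 100 kb and with separate windows, 1040 were joined by at least 1 such PET and 67, or 0.134%, by 2 or more. These pairs are of any distance up to 100 kb and any density, and pairs of like distance and density were not compared. Midn and Cirbp were among the 35 pairs with PETs in at least 2 experiments, as were the nearby genes Sbno2 and Stk11. The pair of Midn and Cirbp was part of how the members were selected.

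The other PETs of 8 kb to 1 Mb with an end in the window of Midn or Cirbp were all from experiment 3. One of 15767 bp ran from Midn to the stretch between the 2 windows, and others of 10969 bp and 11108 bp had both ends in the window of Midn. One of 21403 bp joined the upper side of Midn to Cbarp, and one of 55145 bp joined the lower boundary of Cirbp to an intergenic point. Hsp90aa1 had 3 PETs, also all from experiment 3. They spanned 17514 bp and 28579 bp to 1700001K19Rik and the end of Dync1h1 and, on the other side, 64128 bp to Wdr20. The first 2 of these both had an end in the window of 1700001K19Rik, so that this pair was joined by 2 PETs of 1 experiment. Dnajb1 had 1 of 12886 bp, to a point near Tecr.

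**Figure D4:**
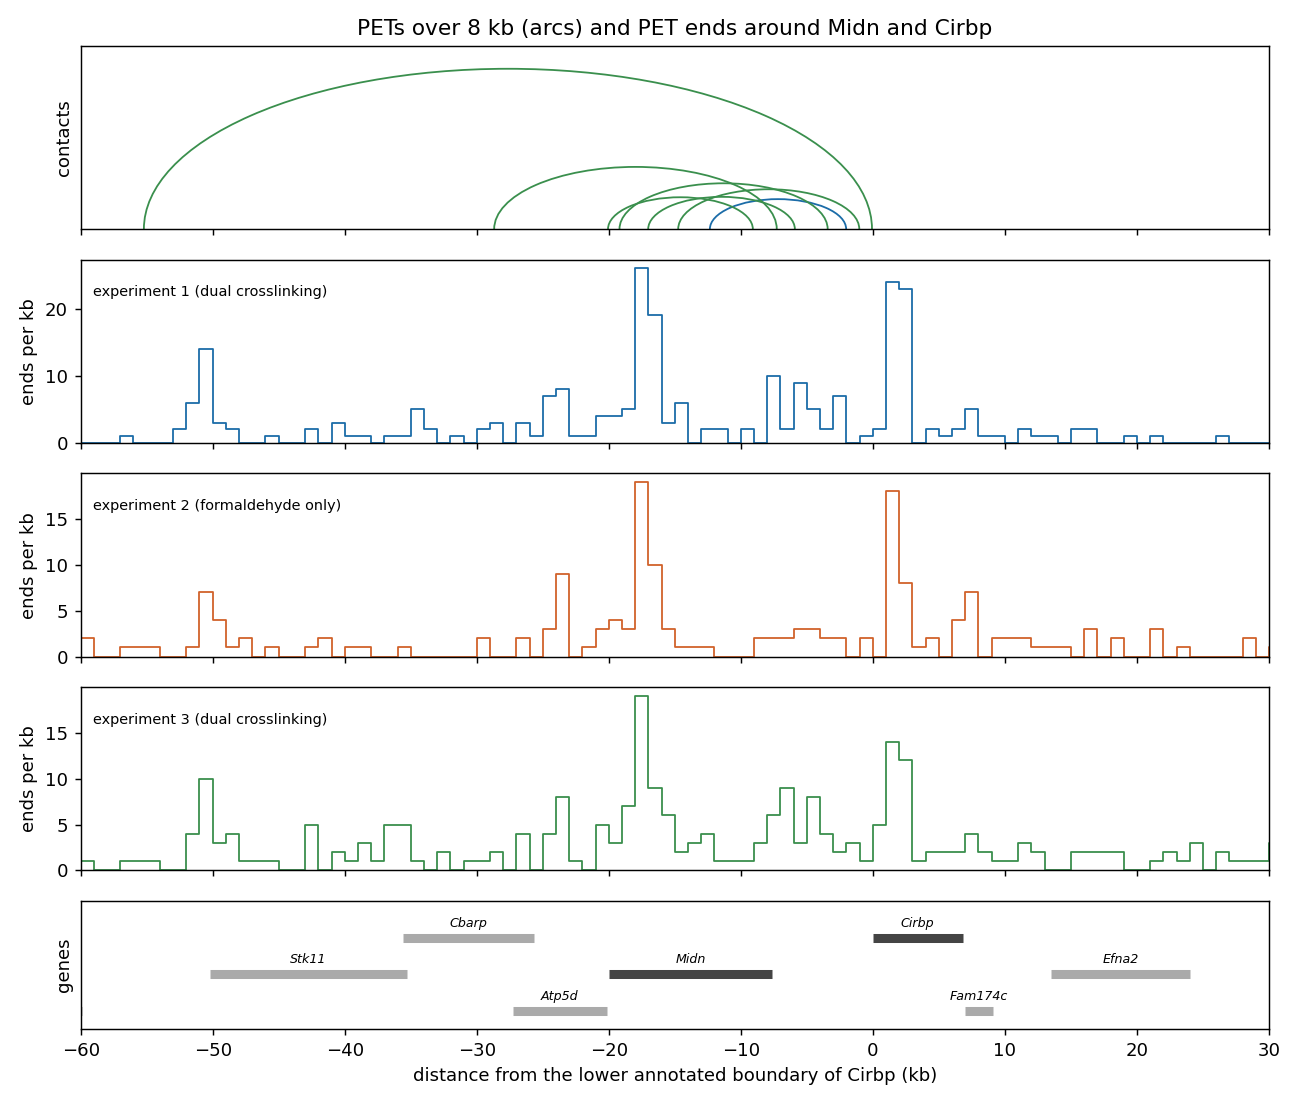
PETs of 8 kb to 1 Mb with an end in the window of Midn or Cirbp (arcs, coloured by experiment), PET ends per kb in each experiment, and protein-coding genes, against distance from the lower boundary of Cirbp in kb. The peaks lie at the starts inside Midn and Cirbp, and 2 arcs, of 10322 bp and 13716 bp, join the 2 windows.

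Several protein-coding genes around Cirbp were dense in PET ends. Of 10 other protein-coding genes within 100 kb, 9, 4 and 9 were at or above a density of 2 in experiments 1 to 3, and 4 in all 3. Of all protein-coding genes 27.7%, 6.52% and 25.4% were, and 5.32% in all 3. The medians of the 10 genes were 5.45, 1.51 and 3.77. Their windows are not all separate from those of the members. The window of Fam174c overlaps that of Cirbp, and the window of Atp5d overlaps that of Midn. Some ends were therefore counted for a member and for a neighbour. Gamt, which makes creatine, lay above Cirbp by value in experiments 1 to 3 with 16.4, 5.17 and 10.5. Ndufs7, a subunit of respiratory complex I, reached 19.0, 2.83 and 6.40. The window of Gamt takes in part of Ndufs7 and of Dazap1, so its ends cannot be told apart from theirs. Cirbp was 3.24, 2.49 and 2.13 times above its surroundings from 10 to 50 kb, well below the folds of Hspa8. Those surroundings take in most of Midn with its annotated starts, and all of Atp5d and Cbarp, but neither Gamt nor Ndufs7. Atp5d, a subunit of ATP synthase directly below Midn, had 13.5, 2.57 and 6.29.

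Of 73 related genes in 7 lists, 54, 25 and 50 were at or above a density of 2 and 25 were in all 3 experiments, with medians of 4.34, 1.59 and 2.63. Of all protein-coding genes 27.7%, 6.52% and 25.4% were, and 5.32% in all 3. The lists were chosen with earlier results of these data known, so nothing is read from that contrast. Genes of endoplasmic reticulum folding and the unfolded protein response had 7 of 12 at or above 2 in all 3 experiments. Atf4, a transcription factor of the stress response, had 46.4, 7.71 and 14.6, above Hspa5 in experiments 1 to 3 by value. The transcription factor Xbp1 had 38.2, 5.30 and 12.2, the secreted protein Manf 23.8, 7.16 and 9.33, and the lectin chaperone Calr 30.3, 4.52 and 9.08. RNA-binding and splicing proteins had 6 of 12, led by Srsf2 (15.0, 6.25 and 7.59), Srsf5 (11.2, 3.87 and 5.35), Srsf7 (5.84, 3.31 and 5.02) and Hnrnpa2b1 (14.5, 3.04 and 6.78).

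Mitochondrial chaperonins and small heat-shock proteins had 5 of 9. Hspe1 had 16.5, 4.75 and 5.77 and its partner Hspd1 9.68, 2.82 and 3.58, followed by the cytosolic chaperonin subunit Tcp1 (12.5, 2.27 and 4.37) and the small heat-shock gene Hspb8 (6.81, 2.10 and 3.19). The HSP90 list had 4 of 10, namely Hsp90b1 (13.3, 2.70 and 4.81), which is the HSP90 of the endoplasmic reticulum, and the co-chaperones Ahsa1 (5.02, 2.63 and 2.45), Ahsa2 (3.97, 2.43 and 3.21) and Fkbp4 (6.14, 2.30 and 7.55). J-domain genes had 3 of 12, namely Dnajb9 (16.0, 4.23 and 8.32), Dnajb4 (6.61, 2.26 and 3.41) and Dnajb2 (9.43, 2.25 and 4.43), with Dnaja1 just under in experiment 2 (10.8, 1.95 and 3.81).

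The other 11 HSP70 and HSP110 genes had 0 at or above 2 in all 3 experiments. The highest by its smallest value were mitochondrial Hspa9 (4.84, 1.77 and 2.67), Hspa4 (1.82, 1.60 and 2.10), Hyou1 (6.90, 1.59 and 4.18) and Hspa2 (7.06, 1.40 and 3.20). Hspa1a had 0, 6 and 8 ends. A count of 0 in experiment 1 sets no firm limit because tags may fit both copies. The regulators and exchange factors also had 0 of 8, with Hsf1, the heat-shock factor itself, at 1.99, 1.97 and 3.38, Bag3 at 4.34, 1.67 and 3.20, and Hspbp1 at 3.77, 1.5 and 1.92. Hsph1 and Hspa1b lay within the range of the rest of the family.

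**Figure D5:**
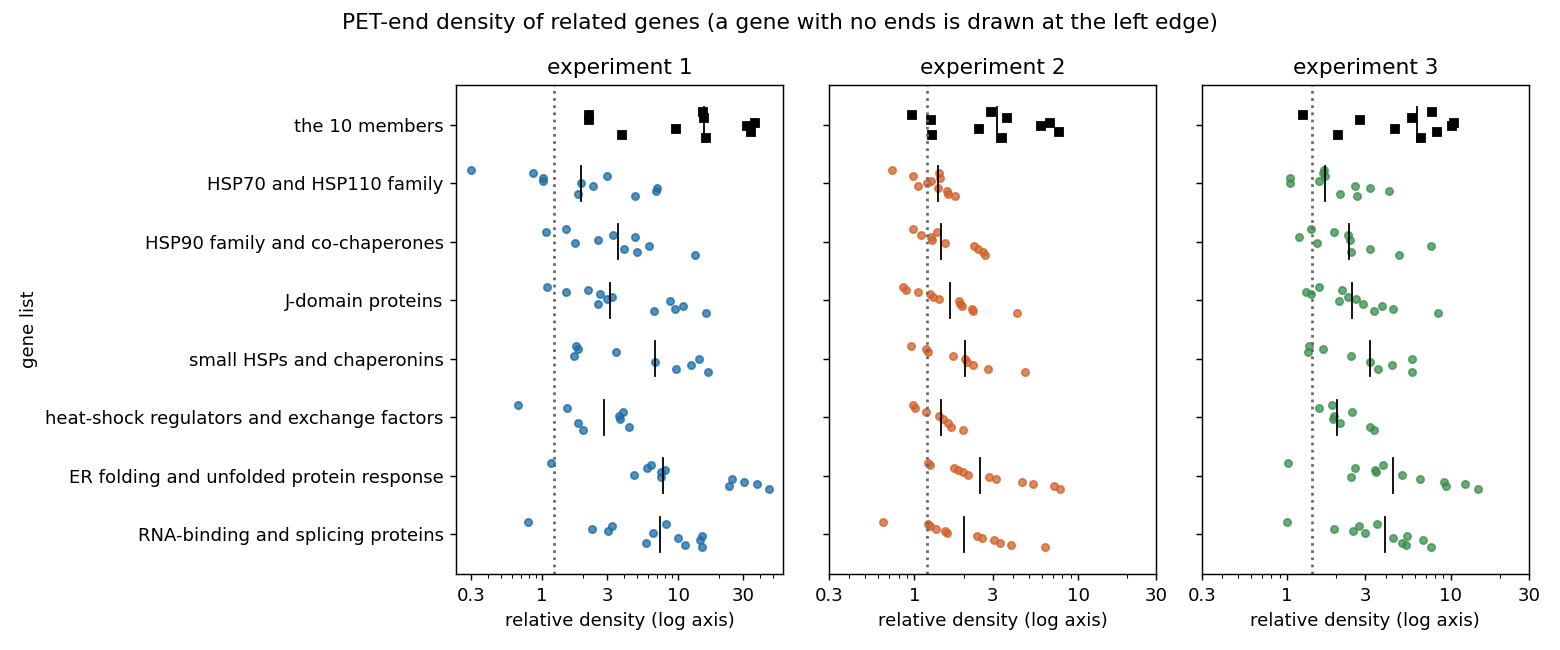
PET-end density relative to the nuclear mean (log axis) of the 10 members and of 7 related lists, 1 panel per experiment. Each point is a gene, black bars are list medians and the dotted line is the median of all protein-coding genes. The endoplasmic reticulum list reaches furthest right among the related lists in experiment 1, up to Atf4 at 46.4.

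By Euclidean distance of log2 density over the 3 experiments, among 12880 genes, Cirbp was nearest to Slc37a4 (distance 0.0886, densities 16.1, 3.60 and 6.34), Pcbp1 (0.0981) and Nags (0.114). Hspa8 had no gene as near. Irf2bp2 (0.354, densities 35.7, 6.19 and 9.27), Gpx1 (0.360) and Tob1 (0.361) came closest.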

How the data were processed

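Pol II ChIA-PET was measured in 8 mouse liver libraries. The authors deposited 1 table of PET positions without a header. Its experiment, linker, chromosome and position columns were used. Per the submitters' processing notes, Bowtie2 and mm10 were used. No source used here states the filters or whether duplicates were removed. The members and gene lists were chosen with earlier results of these data known. No column names a library, so the planned models for ZT18 against ZT06 were not run.

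PETs with a mitochondrial end were set aside. Ends were counted over each span and 2.5 kb either side, and divided by window length and by the nuclear mean, taken over 2722 Mb. Gene spans came from a RefSeq table (GRCm38.p6). Shares have exact binomial and counts exact Poisson 95% intervals, which cover counting error only and treat ends as independent. PETs over 8 kb on one chromosome counted as far. From each related list, up to 4 genes with the highest smallest density are named, and any with 0 ends; the 3 genes of nearest pattern are named for Cirbp and Hspa8. The counting was tested on simulated data. Alternatives were other flanks, folds, scalings, distances, PET kinds and linkers, and each experiment left out. Python 3.11.15, pandas 2.3.3, numpy 2.4.6 and scipy 1.17.1 were used.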

Additional observations from a re-analysis of the deposited data

How the results depend on the processing

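Of 347 alternative values over 51 results, 234 stayed within the counting interval, 112 moved beyond it and 1 reversed: Rbm3 in experiment 1 had a density of 0 with PETs within 8 kb alone. The summed member density moved to 17.0, 3.94 and 6.31 in experiments 1 to 3 with 1 kb either side, to 11.8, 2.78 and 4.98 with 5 kb, and to 12.2, 2.74 and 4.01 scaled to the median gene. It moved to 11.1, 2.25 and 4.44 with PETs between chromosomes and to 28.7, 18.9 and 11.2 with PETs within 8 kb. Linker ATGT gave 16.6 and 4.93 in experiments 1 and 2, and linker TAAG 13.6 and 2.78. No source used here links linkers to libraries, and the cause of these shifts was not tested. The count of members at or above 2 in all experiments ranged from 7 to 9 when 1 experiment was left out. It was 7 with no flank, with 1 kb either side and at a fold of 1.5. With 5 kb either side it was 6, and at a fold of 3 it was 5. The 11 PETs of 8 kb to 1 Mb became 4 from 20 kb, and from 1 to 11 when 1 experiment was left out, with 1 without experiment 3. The share of ends near a start became 53.5%, 52.5% and 39.6% within 500 bp, and 69.2% and 59.0% within 2 kb in experiments 1 and 3. Collapsing PETs within 2 bp removed 9157, 11 and 185 PETs and moved 0 of 30 member densities beyond their intervals. The ratio of flank to start with 1 kb and 5 kb was added after seeing the data. It stayed lowest in experiment 2 in Hspa8, Hspa5, Hsp90ab1 and Midn, and moved beyond its interval in experiment 1 in Hspa8 (0.464 with 5 kb), Hsp90ab1 (0.600 with 1 kb) and Hspa5 (0.118 with 1 kb). No paired analysis was possible because the columns carry no library or replicate number. Depth limits Hspa1b and Rbm3 most, with 6 to 16 ends per experiment.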
